A study of Anopheles gambiae with 36 samples.

Results

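The transcripts described here were highest during the day in the ears of both sexes of the malaria mosquito *Anopheles gambiae*. They numbered 123 of the 15863 transcripts in the deposited table and came from 120 of its 13832 genes. RNA was sequenced from second antennal segments, which house the Johnston's organ (JO), the auditory organ of the mosquito antenna. Males and females of the Kisumu strain, 3 to 7 days old by the study's methods and with no mutation or treatment, were kept for 3 days in a cycle of 12 h light and 12 h darkness, with light ramped over 1 h at dawn and dusk, at 28 °C and 80% relative humidity. On day 4, segments of 35 mosquitoes of 1 sex were pooled for each library at zeitgeber time (ZT, hours from the start of the light phase) 0, 4, 8, 12, 16 and 20. The collection was repeated 3 times for each sex and time point, and 1 male ZT12 library that the authors discarded was left out, so that 17 male and 18 female libraries were used.

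Daily rhythms of mRNA in insects are known to come from a molecular clock, in which the transcription factors CLOCK and CYCLE drive genes such as period and timeless, whose protein products later repress that drive. Light, temperature, feeding and activity also change transcript levels over the day without the clock. *An. gambiae* rests by day and swarms to mate at dusk, when males listen for the wingbeats of flying females, so the transcripts described here were high during the resting phase. Under a light/dark cycle, a response to light and an output of the clock cannot be told apart, and 1 cycle was sampled.

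Members were chosen on their own time courses. Counts were divided by a size factor per library (DESeq2's median of ratios), and these normalised counts were averaged for each sex and time point. A transcript was a member when its mean was 50 or more in each sex, its highest time-point mean lay at ZT4 or ZT8 in both sexes, and the highest mean was at least 2 times the lowest in both. Of 9478 transcripts with a mean of 50 or more in both sexes, 2872 were highest at ZT4 or ZT8 in males, 2573 in females and 1016 in both, and 124 of these also had the ratio. One of them, AGAP005655-RA, belongs to the 6 genes that the rule leaves out. Levels over the day are therefore given as a description. The members closest to the ratio limit were AGAP000562-RB, with a smaller ratio of 2.01, and AGAP006961-RA with 2.02, while AGAP007327-RB and AGAP003614-RB lay just outside at 1.996 and 1.995. At the limit on the mean, AGAP011936-RA was inside with 50.6 in males and AGAP001864-RA with 50.8 in females, and AGAP005323-RB and AGAP002195-RA were outside with 49.3 and 49.2 in males.

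Total estimated counts ran from 11074586 to 18254972 in male libraries and from 9341518 to 17815883 in female libraries. The libraries carry no molecular identifiers. The files name transcripts by identifier only, and genes that mark auditory neurons were not analysed here for want of names. Opsins, the light-sensing proteins known above all from photoreceptors of the eye, could be followed because the study's tables name 8 of them. Their 10 transcripts took 1.39% to 13.7% of the counts in male libraries (median 4.58%) and 9.37% to 45.6% in female libraries (median 27.0%). The samples are labelled as JO, and the paper points to work in *Drosophila* on rhodopsins in hearing and mechanosensation. Opsin values are given again beside the results they were seen to move with.

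Most members climbed into the light phase and had fallen by dusk. Set against each member's highest time-point mean, the median level of male ears was 68.9% at ZT0, 100% at ZT4, 82.8% at ZT8, 40.3% at ZT12, 44.8% at ZT16 and 48.8% at ZT20. In female ears it was 58.1% at ZT0, 100% at ZT4, 76% at ZT8, 45.7% at ZT12, 44.2% at ZT16 and 43.7% at ZT20. The drop between ZT8 and ZT12 was the steepest step of the median in both sexes, other than the climb between ZT0 and ZT4 in females. The rule placed the highest mean at ZT4 or ZT8, which builds in steps at these borders, so nothing is read from them. The highest mean fell at ZT4 for 78 members in males and 86 in females, and at ZT8 for 45 and 37. Both sexes were highest at ZT4 for 64 members and at ZT8 for 23, and another 22 were highest at ZT8 in males and ZT4 in females, while 14 were highest at ZT4 in males and ZT8 in females.

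**Figure D1:**
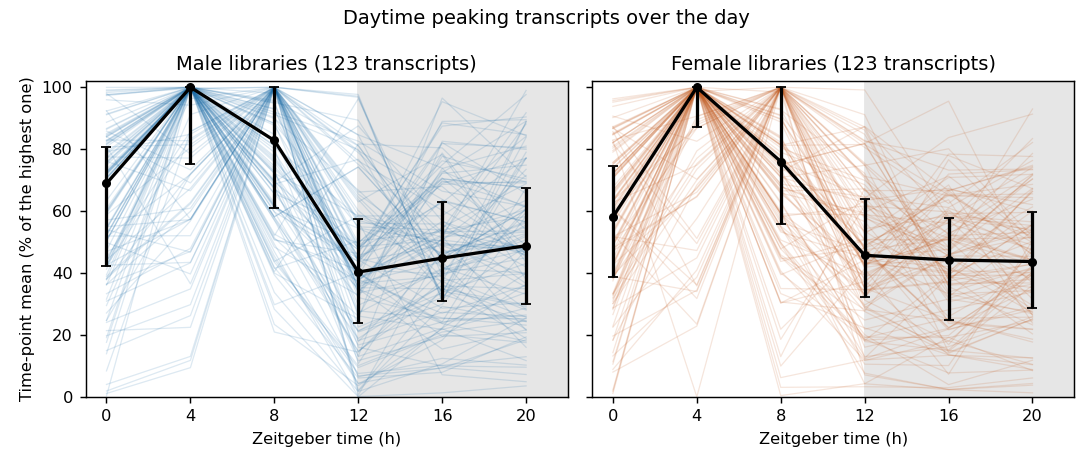
Mean normalised count at each zeitgeber time as a percentage of the transcript's highest time-point mean, in males (left) and females (right); coloured lines are the 123 transcripts, and black points and bars are the median and quartiles. The grey area starts at ZT12. The black median is at 40.3% in males and 45.7% in females at ZT12, after 82.8% and 76% at ZT8.

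The lowest mean fell at the same time point in both sexes for 37 members. In males it was ZT12 for 64 members (52%), against 22.7% of the 9478 transcripts of that mean level. In females 35 members (28.5%) were lowest at ZT12, against 24% of the transcripts, and 36 (29.3%) at ZT16, against 15.7%. The rule placed the highest mean at ZT4 or ZT8, which moves the lowest away from the day, so nothing is read from these excesses. The male ZT12 mean rests on 2 libraries, and these 2 held opsin counts of 171725 and 267372, at the low end of the male range of 171725 to 1691485, to which single ZT16 and ZT20 libraries also reached with 171758 and 194109. With means of log2 counts 62 of the 64 members were lowest at ZT12 in males, and with such means adjusted to a common opsin level 49 were. The rule was met with adjusted means by 46 of the 64 and by 33 of the other 59. The dawn side was higher than the dusk side for many members. The ZT0 mean exceeded the ZT12 mean in both sexes for 63 of the 123 members (51.2%), against 30.4% of all transcripts of that mean level, and 20 members showed the opposite order in both sexes. The rule used these means as well, so nothing is read from the difference between the shares. Members highest at ZT4 in both sexes had ZT0 above ZT12 in 45 of 64 cases and the opposite in 4, while members highest at ZT8 in both sexes divided into 8 and 10 of 23.

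The range over the day was mostly moderate. The ratio of the highest to the lowest time-point mean had a median of 3.02 in males and 3.16 in females. It was 3 or more in both sexes for 50 members, 5 or more for 22 and 10 or more for 5, while 49 members lay under 2.5 in at least 1 sex. The ratio was larger in males for 62 members and in females for 61. For 2 members, AGAP004613-RA and AGAP009132-RB, it had no value in 1 sex because a time-point mean was 0.

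The spread between replicate libraries differed among members. Each library of the highest time point lay above each library of the lowest one for 91 members in males, against 52% of all 9478 transcripts, for 87 in females, against 44.8%, and for 72 in both sexes, against 25.4%. The libraries were apart in males only for 19 members, in females only for 15 and in neither sex for 17. A comparison of the 6 time points with edgeR (quasi-likelihood F) called 26 members in males (adjusted p under 0.05, 1.67% of all transcripts tested) and 18 in females (1.23%). Both sexes shared 8 of these, and 87 members were called in neither. The rule chose the members on these time-point means, so neither the separation of the libraries nor the calls are evidence of a daily change, and nothing is read from them. When replicate number 1, 2 or 3 was left out in turn, the calls numbered 3, 7 and 5 in males and 0, 3 and 0 in females. Of all transcripts tested, 0.0877%, 0.27% and 0.337% were called in males and 0.0815%, 0.161% and 0.137% in females. Membership itself also moved with the libraries, since 35 members met the rule without any 1 replicate number, 43 in 2 of the 3 cases, 36 in 1 and 9 in none.

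**Figure D2:**
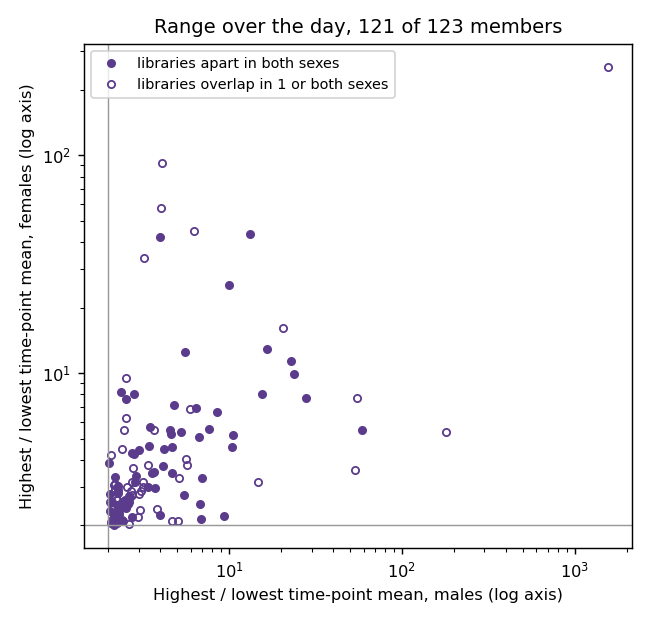
Highest over lowest time-point mean of each member in males (horizontal log axis) and females (vertical log axis), with the limit of 2 as grey lines; filled points are members whose highest and lowest libraries did not overlap in either sex. Both medians are near 3, and 2 members with a mean of 0 are not drawn.

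The clearest day and night pattern was carried by 11 members of 10 genes. In these, each of the 6 libraries of ZT4 and ZT8 lay above each of the 6 libraries of ZT16 and ZT20, in both sexes. Of all 9478 transcripts 13 (0.137%) had this pattern. In males alone it held for 17 members, against 0.665% of transcripts, and in females for 22, against 0.559%. The 11 were AGAP000051-RA, AGAP002632-RA, AGAP005656-RA, AGAP006426-RA, AGAP006480-RA, AGAP006480-RB, AGAP006835-RB, AGAP008444-RA, AGAP011812-RA, AGAP013036-RA and AGAP013301-RB, a group singled out after its values were seen. Of the 11, 9 met the rule without any 1 replicate number, and all 11 met it with log2 time-point means adjusted for opsins. The group was chosen on libraries that the rule also used, so nothing is read from these counts or from the shares above.

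AGAP006480-RA fell steeply between day and dusk in males, and its profile was broader in males than in females. In males it measured 1450.3, 1379.8 and 1581 at ZT0, 1647, 1419 and 2166 at ZT4, 1610.1, 773 and 1433 at ZT8, 146 and 78.7 at ZT12, 168, 218 and 264 at ZT16, and 176, 156 and 203 at ZT20. In females it measured 187, 228 and 220.2 at ZT0, 679, 614 and 687 at ZT4, 311, 286 and 389 at ZT8, 179, 62.1 and 113 at ZT12, 175, 30.0 and 91.6 at ZT16, and 115, 80.9 and 51.8 at ZT20. Male ears were thus already near their maximum at ZT0, where female ears lay closer to their night values, and no male library from ZT0 to ZT8 overlapped one from ZT12 to ZT20. The second transcript of this gene, AGAP006480-RB, had the same order in males, with 1218, 1006 and 878 at ZT0 and 1379, 1032 and 1520.0 at ZT4, against 83.1 and 31.2 at ZT12. In females it measured 667, 539 and 517 at ZT4, 193, 181 and 201 at ZT8 and 50.7, 28.9 and 72.0 at ZT20. Reads that fit both transcripts were divided between them by the quantification, so the pair is not 2 independent observations.

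AGAP000051-RA peaked at ZT8 in both sexes and was far more abundant in males. Male libraries measured 1769.9, 1944 and 2547 at ZT0, 2221, 3573 and 2975 at ZT4, 6794, 7518 and 5951 at ZT8, 1954 and 1793 at ZT12, 1923, 1313 and 1887 at ZT16, and 1225, 1785 and 2104 at ZT20. Female libraries measured 42.7, 62.3 and 77.7 at ZT0, 227, 115 and 504 at ZT4, 465, 1239 and 362 at ZT8, 42.0, 20.7 and 83.0 at ZT12, 0, 31.9 and 16.9 at ZT16, and 39.7, 3.85 and 45.5 at ZT20. The male libraries were highest at ZT8, with ZT4 libraries between these and the night ones, and the highest mean was 3.96 times the lowest, while the female profile had a ratio of 42.3 over a low base. The highest female library, 1239, reached the lowest male one, 1225.

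AGAP013301-RB combined a daytime plateau with a minimum at ZT12 in both sexes. In males it measured 353, 396 and 404 at ZT4, 435, 451 and 473 at ZT8, 101 and 219 at ZT12, and 267, 177 and 231 at ZT16. In females it measured 769, 775 and 823 at ZT4, 806, 709 and 814 at ZT8, and 43.2, 145 and 107 at ZT12, before 254, 301 and 363 at ZT16. The female ZT12 libraries, which were 3 in number, lay below all other female libraries, so the dusk minimum of this transcript does not rest on the 2 male ones. This transcript held 19.0% of the counts of its gene, and the gene did not meet the rule when summed. The isoforms AGAP013301-RA and AGAP013301-RC had ratios of 1.44 and 1.27 in males and of 1.26 and 1.85 in females.

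AGAP002632-RA had the highest mean count of the members, and AGAP008444-RA was the member most strongly tilted to females. In males AGAP002632-RA measured 2469.6, 2337 and 3766 at ZT4 and 4175, 1599.7 and 2353 at ZT8, against 307, 652 and 364 at ZT16 and 449, 411 and 992 at ZT20. In females it measured 5481, 18417 and 26583 at ZT4 and 14940.2, 20302 and 11555 at ZT8, against 2653, 1929.8 and 2674 at ZT16 and 4636, 3829.9 and 4199 at ZT20. At ZT12 males had 1322 and 671, while females still had 19422, 5218 and 11801. AGAP008444-RA had 620.0, 308 and 962 at ZT4 in males, against 59.6, 44.5 and 83.9 at ZT16, and 5497, 7598 and 17826 at ZT4 in females, against 3139, 1259 and 3124 at ZT16. Its female ZT12 libraries ranged between 875 and 9476, wider than any night time point of that sex.

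**Figure D3:**
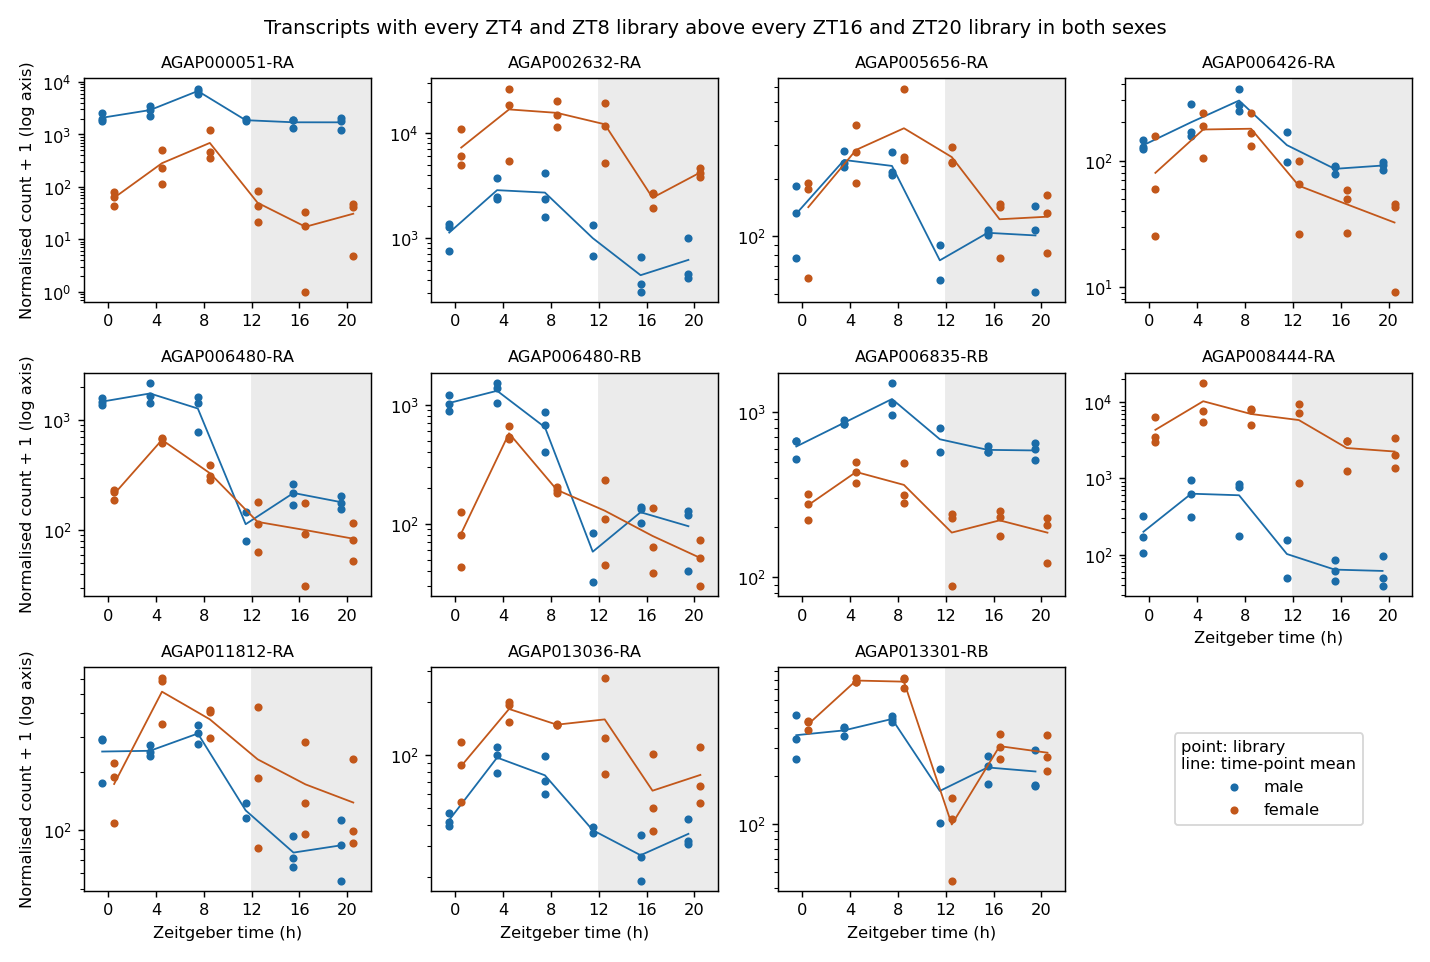
Normalised counts plus 1 (log axis) against zeitgeber time for the 11 members whose libraries of ZT4 and ZT8 all lay above those of ZT16 and ZT20 in both sexes; each point is a library, lines join time-point means, and males are drawn left of females. AGAP000051-RA is at 5951 to 7518 in males and 362 to 1239 in females at ZT8.

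Among members whose highest and lowest libraries were apart in both sexes, AGAP010658-RA and AGAP000213-RA had the largest ratio when the smaller ratio of the sexes was taken. AGAP010658-RA had 191, 95.2 and 299 at ZT4 in males, against 18.8 and 10.6 at ZT12, a ratio of means of 13.3, and 751, 2563 and 4468 at ZT4 in females, against 84.1, 34.8 and 59.8 at ZT16, a ratio of 43.5. AGAP000213-RA had 212, 55.3 and 644 at ZT4 in males, against 13.4 and 23.4 at ZT12, and 2508, 5952 and 2433 at ZT4 in females, against 200.1, 195 and 444 at ZT16. The female day libraries of both transcripts lay above the female night libraries, but the male ones overlapped. A male ZT20 library, for example, held 153 counts of AGAP000213-RA, above the lowest ZT4 library of 55.3. AGAP006467-RA had a ratio of 58.6 in males and 5.47 in females. Its male ZT12 libraries held 2.68 and 11.3, while its ZT20 libraries held 22.8, 36.9 and 254. AGAP000213-RA and AGAP006467-RA varied with the opsins of the library: once time means were removed, their correlation with the opsin sum was 0.895 and 0.932 over 17 male libraries and 0.894 and 0.887 over 18 female libraries, which share 1 scaling. The male ZT4 library with 644 counts of AGAP000213-RA and 915 of AGAP006467-RA held 1537671 opsin counts, the ZT20 library with 153 and 254 held 1691485, and the male ZT12 libraries held 171725 and 267372. For AGAP010658-RA the correlation was 0.7496 in males and 0.061 in females. The part of the opsins in these profiles was not tested.

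The 2 members that the study's tables name are both receptors of signalling molecules. AGAP003654-RA (GPRCAL3) belongs to the calcitonin-like receptors, G protein-coupled receptors that respond to neuropeptides. It measured 119, 88.3 and 209 at ZT4 in males, against 41.2, 98.6 and 52.9 at ZT16, and 461, 775 and 323 at ZT4 in females, against 105, 300.0 and 103.1 at ZT12. Its male libraries overlapped between the highest and lowest time point, with 88.3 at ZT4 below 98.6 at ZT16. The daily range of this transcript in males was thus not clear of the spread between pools. AGAP004613-RA (GPRDOP1), listed by the authors under serotonin receptor activity, held 0 counts in 8 of 17 male libraries and in 1 of 18 female libraries. Summed over its 2 transcripts, the gene had male means of 153, 131, 96.9, 90.1, 137 and 105 from ZT0 to ZT20 and female means of 549.9, 416, 450.3, 382, 438 and 396, so the daytime maximum of this transcript was not shared by its gene. Of 95 listed receptor transcripts with a mean of 50 or more in both sexes these 2 were members, 1 of 9 listed under peptide receptor activity and 1 of 6 listed under serotonin receptor activity.

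Some profiles varied widely within a time point. AGAP011630-RA, named here after its values were seen, had the largest ratios of all members, 1546 in males and 255 in females. Its male ZT4 libraries held 7.03, 0 and 1637, against 0 and 0.709 at ZT12, and its female ZT4 libraries held 850.3, 1854 and 2.06, against 3.66, 0 and 6.96 at ZT8. The libraries of its highest and lowest time points overlapped in both sexes.

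For part of the genes the pattern held for single isoforms. Of the 120 member genes, 79 have 1 transcript in the table and 41 have several, and 3 genes, AGAP006480, AGAP006592 and AGAP011937, have 2 members each. When counts were summed per gene, 87 of the 120 genes met the rule, 79 of those with 1 transcript and 8 of those with several. Of the 33 genes that did not, 8 were still highest at ZT4 or ZT8 in both sexes when summed, AGAP006592 among them. Values of single isoforms also depend on how reads were divided among them. AGAP028874-RA and AGAP028880-RA had identical counts in each library and count as 1 observation.

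The difference between the sexes was not used by the rule and was tested with edgeR, with time point as a further term of the model. Of the 123 members 84 differed (adjusted p under 0.05), or 68.3%, against 68.4% of all 12428 transcripts tested, so the share called was that of the background, and of the transcripts with a mean of 50 or more in both sexes 69.9% were called. The direction was uneven. Higher in males were 21 members (17.1%), against 34.2% of transcripts, and higher in females were 63 (51.2%), against 34.2%. Among transcripts of that mean level, 39.6% were higher in males and 30.3% in females. The median log2 fold change, male over female, was -0.79 for the members, with a range of -4.63 to 4.84, and -0.000398 for all transcripts. More than 2-fold higher in males were 11 of the called members, against 44 more than 2-fold higher in females, and 39 members were not called. The p-values measure the spread between these pools.

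Scaling and opsin level affected this count. With libraries scaled by total counts, which moved the median of all transcripts by 0.53 (log2), 31 members were called higher in males and 41 in females. Of all transcripts 78% were called in that fit, 7246 of 9695 higher in males. The median of the members stayed 0.78 below that of all transcripts. Summed opsin counts averaged 686409 in males, against 5263856 in females. With the log2 opsin count as a covariate 34 members were called, 12 higher in males and 22 in females, and 28.8% of 12692 transcripts were called in that fit, 1859 of them higher in males. The members' median moved to -0.05, beside 0.07 for all transcripts. Of the 84 called members 30 were still called in the same direction, 18 changed the sign of the estimate and 0 were called in the opposite direction. Opsin counts separate the sexes almost completely, so in this fit the sex difference and the opsin difference are hard to tell apart. In such bulk pools fewer cells of a type and less RNA per cell cannot be told apart.

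Among members by hour of the peak, those highest at ZT4 in both sexes were higher in males for 9 and in females for 38 of 64, with a median log2 fold change of -0.92. Those highest at ZT8 in both sexes were higher in males for 7 and in females for 8 of 23, with a median of -0.19. The members highest at ZT4 in 1 sex and ZT8 in the other were higher in males for 5 and in females for 17 of 36, with a median of -0.71. These groups were described, and their difference was not tested. Libraries of the sexes did not overlap, with the male higher, for 1 member, against 5.36% of transcripts, and with the female higher for 4, against 5.11%.

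AGAP000051-RA and AGAP006592-RC led the members higher in males. AGAP000051-RA ranged from 1225 to 7518 with a median of 1954 in males, against 0 to 1239 with a median of 53.9 in females, a log2 fold change of 4.84 ± 0.36 (SE, edgeR adjusted p = 4.72e-13). AGAP006592-RC ranged from 694 to 5812 with a median of 1278 in males, against 85.8 to 1009 with a median of 361 in females (2.15 ± 0.15, edgeR adjusted p = 4.60e-14). At ZT8, its highest time point, it held 5194, 4731 and 5812 in males, against 1009, 887 and 748 in females. Another isoform of this gene, AGAP006592-RB, went the other way, with a mean of 759 in males and 1732 in females. Summed over its isoforms, AGAP006592 had means of 3287 in males and 2889 in females at ZT0, and 9741 and 4010 at ZT8. The male excess of AGAP006592-RC was thus not shared by all isoforms. The level of the gene AGAP006480 was also higher in males, with log2 fold changes of 1.51 for AGAP006480-RA and 1.33 for AGAP006480-RB (edgeR adjusted p = 4.47e-07 and 6.71e-04).

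AGAP008444-RA and AGAP006467-RA led the members higher in females. AGAP008444-RA ranged from 37.7 to 962 with a median of 154 in males, against 875 to 17826 with a median of 4274 in females (-4.63 ± 0.34, edgeR adjusted p = 3.34e-13). AGAP006467-RA ranged from 2.68 to 915 with a median of 109.9 in males, against 320.0 to 7955 with a median of 1581 in females (-4.19 ± 0.44, edgeR adjusted p = 7.11e-10). AGAP002632-RA ranged from 307 to 4175 in males, against 1929.8 to 26583 in females, a log2 fold change of -2.69 ± 0.21 (edgeR adjusted p = 1.42e-12). AGAP004212-RA, next to it in mean count, ranged from 935 to 3474 in males, against 2818 to 10652 in females (-1.61 ± 0.14, edgeR adjusted p = 7.29e-12). The female levels of these 4 transcripts were higher in most libraries, although their ranges overlapped between the sexes. With the opsin covariate the log2 fold change of AGAP006467-RA was -1.17 (edgeR adjusted p = 0.0183), that of AGAP008444-RA -4.97, that of AGAP002632-RA -2.33 and that of AGAP004212-RA -1.29.

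Female excess was also measured for AGAP010658-RA (-3.04 ± 0.38, edgeR adjusted p = 2.90e-08), AGAP000213-RA (-3.56 ± 0.39, edgeR adjusted p = 1.69e-09) and the calcitonin-like receptor AGAP003654-RA. AGAP003654-RA ranged from 41.2 to 209 with a median of 97.2 in males, against 103.1 to 906 with a median of 300.1 in females (-1.80 ± 0.23, edgeR adjusted p = 4.32e-08). AGAP004613-RA differed by -2.45 ± 0.79 (edgeR adjusted p = 0.00734). These 4 differences were no longer called with the opsin covariate, where AGAP010658-RA was at -1.56 (edgeR adjusted p = 0.0803), AGAP000213-RA at -0.71 (0.1514), AGAP003654-RA at -0.25 (0.6562) and AGAP004613-RA at -1.79 (0.407). The call of AGAP004613-RA was also lost without replicate 2 (-2.18, edgeR adjusted p = 0.0508) and with all 36 libraries (-1.77, edgeR adjusted p = 0.0643).

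**Figure D4:**
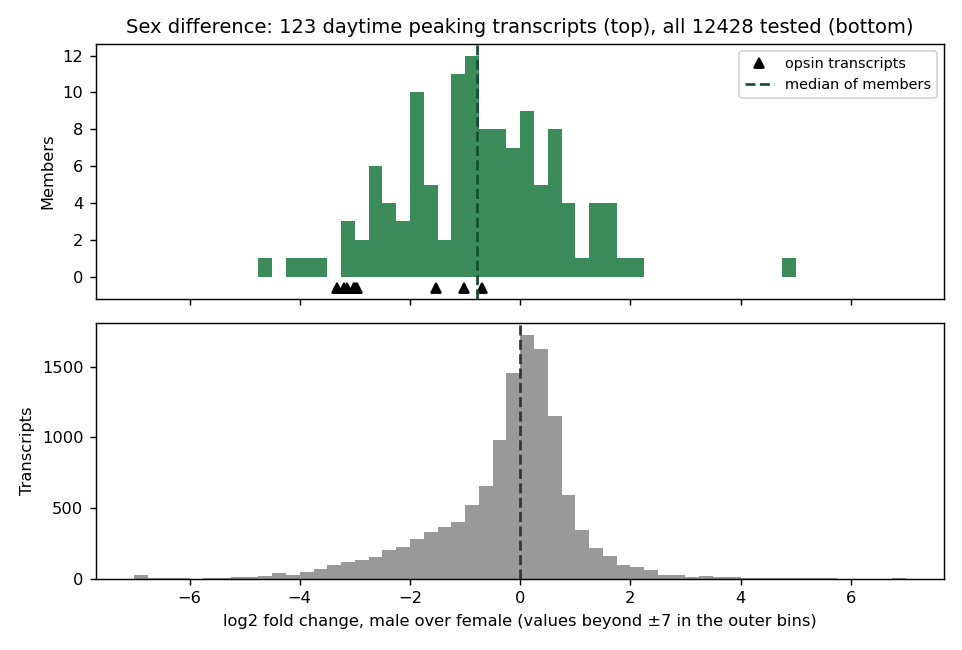
Distribution of the log2 fold change, male over female, of the 123 members (top) and of all 12428 transcripts tested (bottom), with medians as dashed lines and the opsin transcripts as triangles. The members' median is -0.79 and that of all transcripts -0.000398.

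Whether the daily range itself differed between the sexes was tested as the difference of ZT4 and ZT8 from ZT16 and ZT20, male minus female. The rule used both time courses but not which sex had the larger difference. The edgeR test called 0 members and 0 of 12898 transcripts (0%). At an unadjusted p under 0.05 there were 15 members (12.2%), 3 larger in males and 12 larger in females, against 640 of all transcripts (4.96%). The difference is built from means that the rule used, so nothing is read from these counts and shares. DESeq2's Wald test called 2 members and 61 of all transcripts. One was AGAP000051-RA, with a difference of -2.88 (edgeR adjusted p = 0.1728, DESeq2 adjusted p = 0.002333), whose day minus night difference was 1.37 in males and 4.25 in females. The other was AGAP009193-RA, with -1.06 (edgeR adjusted p = 0.2793, DESeq2 adjusted p = 0.02903), where the difference was 0.25 in males and 1.31 in females. AGAP009193-RA, chosen after its values were seen, measured 357, 429 and 391 at ZT16 in males, against 151, 206 and 222 in females. ZT16 is only part of this difference, and over all libraries the means were 384 in males and 387 in females.

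Opsin counts varied among libraries of 1 sex and time point, and some members varied with them. Across libraries the correlation of a transcript's deviation from its time means with that of the opsin sum, over 17 male and 18 female libraries that share 1 scaling, had a median of 0.265 in males and 0.107 in females for the members, against -0.0448 and -0.0458 for all transcripts of that mean level. It exceeded 0.5 in both sexes for 22 members (17.9%), against 4.16% of transcripts. Of those 22, 0 were called higher in males and 15 higher in females, with a median log2 fold change of -1.99, and 9 met the rule with opsin-adjusted means. The other 101 members were called higher in males for 21 and in females for 48, with a median of -0.44. Of these 101, 70 met the rule with adjusted means. The 22 were picked for varying with the opsin sum, which itself averaged higher in females. Calls by sex were not counted for the 394 transcripts of that mean level that passed the same cut. Nothing is therefore read from the difference in sex calls between the 22 and the 101 members. The adjusted means were means of log2 counts, unlike those of the rule. Log2 means without the adjustment were not put to the rule, so the 2 changes were not separated. None of the 11 members with separated day and night libraries was among the 22. A daytime library with few opsins can also be set against night libraries with many. The male ZT4 library with 230421 opsin counts was above the male ZT20 library with 1691485 and the ZT16 library with 1580837 for 65 of 123 members, against 34% of transcripts, and a female ZT4 library with 3315221 exceeded night libraries with 11743004 and 5567315 for 82, against 35.5%. The members were chosen on libraries that include these, so nothing is read from the excess, and the part of eye tissue in the daytime maxima was not tested.

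**Figure D5:**
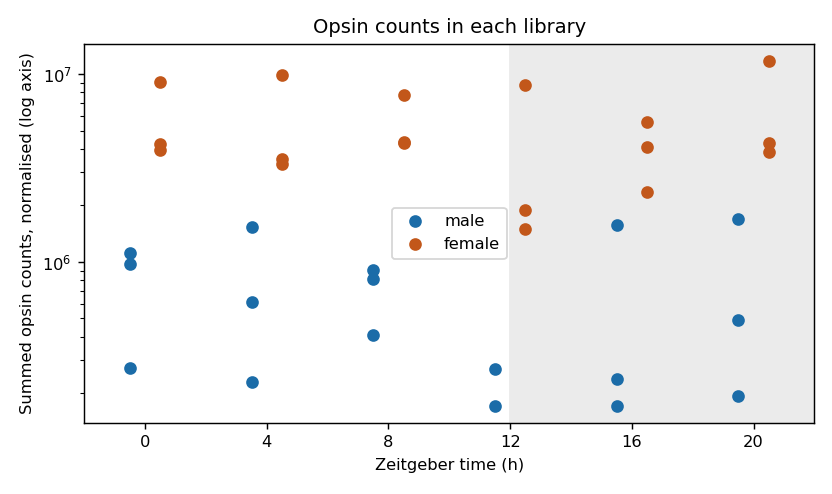
Summed normalised counts of 10 opsin transcripts in each library (log axis) against zeitgeber time, males left of females. Male libraries lie between 171725 and 1691485 and female libraries between 1504185 and 11743004.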

How the data were processed

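Second antennal segments of 35 mosquitoes were pooled per library. Full-length cDNA was amplified by PCR. The authors estimated transcript counts with Kallisto against the VectorBase transcriptome (release 53), and deposited these estimated counts without normalization. Where a read matched more than 1 isoform or paralog, it was shared out between them. All columns were matched to samples (0 without one), and 1 of 36 libraries, a male ZT12 library that the authors discarded, was left out. Counts were rounded to whole numbers. Size factors were computed with DESeq2 1.42.0, and tests were run with edgeR 4.0.16 in R 4.3.3 (quasi-likelihood F-test, filterByExpr, TMM, Benjamini-Hochberg adjustment over all transcripts tested, threshold 0.05). DESeq2 served as an alternative. The edgeR fits of the main results and the rule were run on simulated counts with the same spread for all transcripts. The simulation held no opsin differences between replicates, and the DESeq2, covariate and block fits were not part of it. Figures were drawn with Python 3.11.15 and matplotlib 3.10.9.

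Members and lists were chosen with earlier results of these data known. Members named in the text were every member named in the study's tables, the 2 with the largest smaller ratio among those whose highest and lowest libraries were apart in both sexes, the 2 with the highest mean, the 2 with the largest sex difference in each direction, and the members just inside and transcripts just outside the limits. Others were named after their values were seen. No genome or annotation for these identifiers was used here (0 matched in the RefSeq table), so no sequence, promoter motif or gene group by product was analysed. The replicate libraries of a group differed from each other by more than counting noise, with a chi-square per degree of freedom of at least 42.3.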

Additional observations from a re-analysis of the deposited data

How the results depend on the processing

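The number of members was 193 with a mean of 25 or more, 341 at a ratio of 1.5 or more and 50 at a ratio of 3 or more. It lay between 156 and 166 without 1 replicate number, with 68 to 80 members shared, and the other settings left it within 1.5 times. The members themselves turned over more: of the 123, 118 were shared with TMM, 116 with size factors within each sex, 103 with total counts, 88 without ZT12, 85 with all 36 libraries, 82 with time-point medians and 79 with opsin-adjusted means of log2 counts. With the opsin covariate 34 members differed between the sexes, 12 higher in males and 22 in females, and with total counts 41 were higher in females. Without 1 replicate number the sex calls numbered 72 to 76, beside 57.8% to 62.1% of all transcripts tested. DESeq2 called 2 members for the sex difference of day minus night, where edgeR called 0. DESeq2's likelihood ratio test over time called 57 members in males (3.98% of all transcripts) and 51 in females (4.1%). With the opsin covariate the time test called 29 in females (1.89%). Without 1 replicate number it called 3 to 7 in males (0.0877% to 0.337%) and 0 to 3 in females (0.0815% to 0.161%). The rule used these time-point means, so nothing is read from the time calls. The causes of the changes between settings were not tested, except that leaving out a replicate number leaves fewer libraries. Of the values of the 14 named members under the alternatives, 139 kept their direction and call, 8 lost the call, 1 gained it (AGAP000562-RB with total counts) and 6 changed sign without being called (AGAP000562-RB and AGAP006961-RA).

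Samples with the same replicate number were not treated as pairs, since the labels give no shared source and deviations of both sexes at 1 time correlated from -0.176 to 0.265, above 0.1 in 6 of 17 pairs. As a hint of shared variation, 25 of 35 libraries correlated best with their own number, and the mean correlation was 0.0694 for the same number and -0.0344 for other numbers. With the replicate block 81 members differed between the sexes, 21 higher in males and 60 in females, beside 69.5% of all transcripts tested. In the day minus night difference 0 members were called. The time test called 27 members in males (2.02% of all transcripts tested) and 16 in females (1.2%).

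Members with means near 50, with isoforms or with time points at 0 are measured least firmly, and the male ZT12 mean rests on 2 libraries.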

Other observations

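The discarded male ZT12 library held 0 counts for 29 of the 123 members. Of the members, 63 lay below the lowest male ZT4 or ZT8 library, 32 above the highest and 28 between. Its log2 counts correlated with those of male ZT12 replicate 1 at 0.4477, against 0.9299 between replicates 1 and 2, over transcripts with a mean of 50 or more in both sexes. Of the members 14 lay within the range of the other 2 male ZT12 libraries, 50 above it and 59 below it.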
